A study of Mus musculus with 6 samples.

Results

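The 10 genes Twist1, Twist2, Prrx1, Prrx2, Hand1, Hand2, Tfap2a, Tfap2b, Osr1 and Osr2 encode transcription factors of the cranial neural crest and of the mesenchyme it forms. They were chosen by name, as all probe sets whose only gene symbol in the platform annotation was one of the 10, which gave 22 probe sets of 34945 and 10 genes of 18193. Expression was measured on Affymetrix arrays in tongues of C57BL/6J embryos at embryonic day 14.5. The 3 mutants carried Tgfbr2 fl/fl and Wnt1-Cre, and the 3 controls carried Tgfbr2 fl/fl without Cre, although their titles call them wildtype. Every animal therefore carried the floxed allele of Tgfbr2, which encodes the type II TGF-beta receptor. The series set out to find genes that depend on this receptor while the tongue muscle forms, in mutants with a small tongue. Wnt1-Cre is active in neural crest cells and their descendants, so muscle fibres, epithelium and the endothelium of vessels in the mutant tongue keep the receptor gene. The labels call the material both tongue and tongue mesenchyme, without saying whether arrays came from separate litters or pooled animals, so the p-values measure only the spread between these samples.

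Cranial neural crest cells leave the edge of the neural tube, fill the facial prominences, and there form the connective tissue of the tongue around muscle that comes from mesoderm. Twist and Hand proteins are basic helix-loop-helix factors that bind DNA as dimers, often with the widely expressed E proteins. Prrx proteins are paired-related homeodomain factors of mesenchyme, Tfap2 proteins are AP-2 factors of neural crest and surface epithelium, and Osr proteins are zinc finger factors related to Drosophila odd-skipped. In mice, Hand2 acts in the lower jaw and is needed for a normal tongue, and Osr1 keeps tongue mesenchyme from forming cartilage.

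None of these factors passed the test in the mutant tongue. With 1 probe set standing for each gene, 0 of the 10 were higher and 0 were lower at an adjusted p under 0.05 (limma), where 2.14% of all 13645 tested genes passed. At an unadjusted p under 0.05 the count was 1 of 10, against 16.9% of all tested genes, and that gene was Tfap2b. Tfap2b was also the only member, of 10, whose mutant and control values did not overlap, as was the case for 25.1% of all tested genes. The median log2 difference of the 10 (mutant minus control) was 0.034, beside 0.016 for all tested genes, and the median absolute difference was 0.099, beside 0.133. The 95% interval of the log2 difference lay within 0.5 of zero for 6 members (Twist1, Twist2, Hand1, Hand2, Tfap2a and Osr2) and within 1 for 8. Those intervals bound the changes these arrays allow and do not show that the levels were equal. In simulated arrays with the same spread, in which 200 genes were changed, the fit called 0% of the genes changed by 0.5 log2 units. Nothing passed in that simulation, while 292 genes passed in these data, where the adjusted threshold was therefore easier to reach. The share of 0% may thus be too low for these arrays, and the 0 calls do not exclude changes of that size or less. A further probe set of Prrx1, described with that gene, passed on its own.

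**Figure D1:**
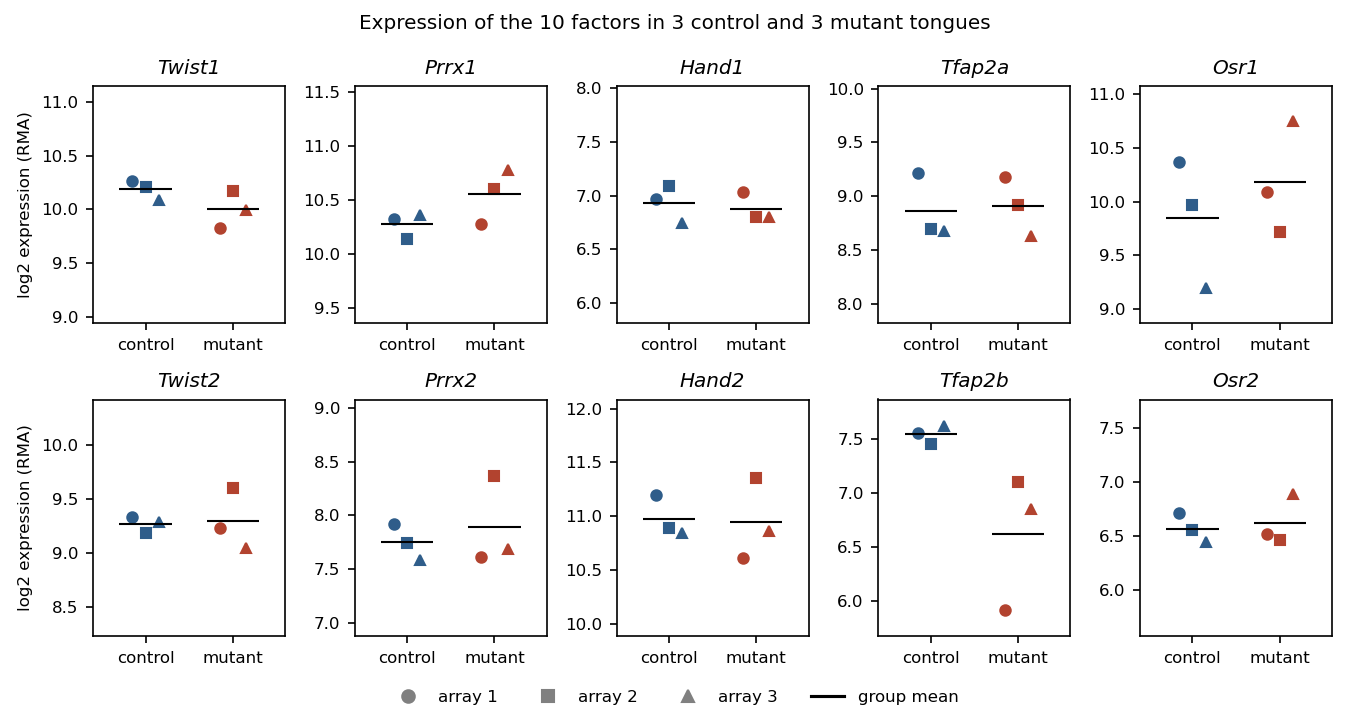
Log2 expression (RMA values, y axis) of the probe set that stands for each of the 10 genes, in 3 control and 3 mutant tongues. Each symbol is 1 array, with its shape giving the number in the title, and the black line is the group mean. All panels span the same number of log2 units, and only Tfap2b has every mutant (5.91 to 7.11) below every control (7.45 to 7.62).

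Mutant array 1 stood apart from the other arrays, so results that rest on it are given with and without it. Across the tested genes it correlated with the other 5 arrays at 0.966 to 0.978, against 0.984 to 0.998 among those 5. Mutant array 1 was the lowest of all 6 arrays for Twist1, Hand2 and Tfap2b. Tgfbr2 RNA differed by -0.18 (standard error 0.18, adjusted p = 0.642, limma) on its brightest probe set. The sources used here do not give which exon is deleted, so this value does not test the labels. All 12 skeletal muscle, all 12 epithelial and all 10 connective tissue markers lay above the filter value of 5.17, under which the dimmest 25% of genes were left out. Most genes lie above that value, so this checks the tissue label only weakly.

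The promoter sequences of Tfap2b and Prrx1 are shown because these genes carry the largest tested differences of the 10, Prrx1 through a further probe set and after its values were seen. They are the 250 bases before the transcription start in RefSeq (GRCm38.p6), on the strand of the gene, with CAGAC, the short element that Smad proteins of the TGF-beta pathway can bind, or its reverse complement GTCTG in capitals. Tfap2b lies on the plus strand at chr1:19211804-19212053 and Prrx1 on the minus strand at chr1:163313651-163313900.
Tfap2b: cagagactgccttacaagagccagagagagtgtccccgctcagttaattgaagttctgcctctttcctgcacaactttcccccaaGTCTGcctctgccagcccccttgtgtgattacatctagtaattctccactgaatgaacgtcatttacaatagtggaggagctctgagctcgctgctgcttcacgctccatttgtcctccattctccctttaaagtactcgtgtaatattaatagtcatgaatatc
Prrx1: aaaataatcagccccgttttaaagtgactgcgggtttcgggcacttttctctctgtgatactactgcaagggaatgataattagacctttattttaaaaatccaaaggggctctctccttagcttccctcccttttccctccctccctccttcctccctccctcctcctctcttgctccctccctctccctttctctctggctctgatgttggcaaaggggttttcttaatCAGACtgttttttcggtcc
Each window held 1 match, whose first base lay 165 bases before the start in Tfap2b and 19 bases before it in Prrx1. On both strands, CAGAC was in 42.2% of all 32851 RefSeq promoter windows of the same length, and in 3 of the 8 windows that the table holds for 7 of the 10 genes, the third being that of Twist1. The E-box CANNTG, the site type of Twist and Hand dimers, was in 66.2% of all windows and in 2 of these 8, 1 match in Tfap2b and 2 in Hand2. The AP-2 motif GCCNNNGGC, which was added after the data were seen, was in 13.7% of all windows and in 2 of the 8, those of Prrx2 and Twist2. These matches describe letters in a window and no binding was measured.

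Tfap2b encodes AP-2 beta, a factor of neural crest, kidney and sympathetic neurons, and its probe sets gave the lowest mutant values relative to controls. On its brightest probe set the mutant arrays 1, 2 and 3 read 5.91, 7.11 and 6.85 and the control arrays 7.56, 7.45 and 7.62. All mutants lay below all controls, and mutant array 1 lay furthest below. The means were 6.62 ± 0.63 and 7.55 ± 0.085 (SD, n = 3 per genotype), so the mutants varied far more than the controls. The log2 difference was -0.92 (95% interval -1.58 to -0.27, a ratio of 0.528), and it did not pass (adjusted p = 0.162, limma). The second probe set, read by other probes of the array, gave 5.44, 6.61 and 6.48 in the mutants and 7.15, 6.94 and 7.19 in the controls. It kept the same order of arrays within the mutants and differed by -0.92 (standard error 0.29, adjusted p = 0.184 among 24307 probe sets, limma).

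The Tfap2b difference depended on mutant array 1 in size. Without that array it was -0.57 and passed (adjusted p = 0.0302), in a fit that called 4.91% of all tested genes. With array quality weights, which count a divergent array less, it was -0.63 and passed (adjusted p = 0.0372), where 7.58% of all genes did. Both calls were lost when every probe set was fitted, where the same probe set had adjusted p = 0.0528 without mutant array 1 and 0.0629 with array quality weights. In the other fits with 1 value per gene, Tfap2b had the same sign with adjusted p between 0.0942 and 0.449, the former with the replicate number as a block. In the other fits of every probe set, the brightest Tfap2b probe set also had the same sign, with adjusted p between 0.107 and 0.457.

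In whole tongue RNA, fewer cells of a type and less RNA per cell cannot be told apart. Markers of cell types that can express AP-2 genes are given beside these results, and their part was not tested. Of 8 tested Schwann cell and glia markers 0 passed and 1 was negative, with summed linear levels of 3557 to 4924 in the mutants and 3770 to 3865 in the controls. Of 8 tested markers of autonomic neurons 1 passed, Stmn2, a neuronal tubulin-binding protein gene, which rose by 1.07 (adjusted p = 0.0272, limma). That call was lost with averaged probe sets (0.0707), with the sex covariate (0.0719) and when any 1 array other than mutant array 1 was left out (adjusted p between 0.0530 and 0.149). Without mutant array 1, 5 of the 8 neuron markers and 4 of the 8 Schwann cell and glia markers were higher, where 3.17% of all tested genes were. With array quality weights 4 markers of each list were higher. The summed level of the measured neuron markers was 1293 to 2098 in the mutants and 1205 to 1335 in the controls. The melanocyte markers Dct, Tyr, Tyrp1 and Mlana all lay under the filter value. The 6 melanocyte markers, 2 of them above that value, summed to 261 to 281 in the mutants and 268 to 286 in the controls. Summed levels follow the brightest genes of a list, and their part in the Tfap2b values was not tested. Connective tissue markers summed to 50144 to 69630 in the mutants and 58821 to 67475 in the controls, with mutant array 1 lowest.

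Tfap2a encodes AP-2 alpha, which acts in neural crest and in surface epithelium, and its values in the genotypes overlapped. The mutant arrays read 9.18, 8.92 and 8.63 and the control arrays 9.22, 8.70 and 8.67. Array 1 was the highest of its group in each genotype. The log2 difference was 0.047 (95% interval -0.40 to 0.49, adjusted p = 0.925, limma). The further probe sets, the first of which has a name ending that marks probes shared with similar transcripts, differed by 0.085 and 0.12. Of the epithelial markers, all 12 had a positive log2 difference, 0 passed, and their summed linear level was 21124 to 33469 in the mutants and 16487 to 18065 in the controls. With the replicate block 4 of the 12 were higher, where 2.07% of all tested genes were. The count was also 4 with array quality weights, and it was 2 without mutant array 1 and 0 to 4 over all fits with 1 array left out. The most clearly separated were Krt15 (0.56, adjusted p = 0.0595) and Krt14 (0.94, adjusted p = 0.0605), keratin genes of the basal epithelium. Their part in the Tfap2a values was not tested.

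The AP-2 pair was the only pair, of 5 paralogue pairs, whose within-array difference separated the genotypes. Among single genes 25.1% of all tested genes separated them, and the share among pairs of other genes was not computed. Tfap2b alone also separated the genotypes (-0.92, against 0.047 for Tfap2a), so the pair is not a result independent of that gene. Tfap2a minus Tfap2b was 3.26, 1.82 and 1.78 across mutant arrays 1, 2 and 3, against 1.66, 1.24 and 1.05 across the controls. Every mutant lay above every control, by a mean of 0.97 more, or 0.48 more without mutant array 1. The exact 2-sided permutation p was 0.1, the smallest that 3 arrays against 3 allow, and 0.5 after Benjamini-Hochberg adjustment over the 5 pairs. The other pairs overlapped, with mutant-minus-control changes of -0.21 for Twist1 minus Twist2, 0.14 for Prrx1 minus Prrx2, -0.022 for Hand1 minus Hand2 and 0.28 for Osr1 minus Osr2. Their exact permutation p-values were 0.3, 0.7, 1 and 0.5.

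Prrx1, which encodes a homeodomain factor of facial and limb mesenchyme, gave different answers on its 6 probe sets. On the brightest, mutant arrays read 10.28, 10.60 and 10.77 and controls 10.32, 10.14 and 10.36. Mutant array 1 lay among the controls and the other mutants above them. The log2 difference was 0.28 (95% interval -0.052 to 0.61), without a call (adjusted p = 0.372, limma), and 0.41 without mutant array 1 (adjusted p = 0.0710). On the third-brightest probe set, annotated to Prrx1 through an expressed sequence tag, the mutants read 9.45, 9.55 and 9.56 and the controls 9.01, 8.82 and 8.90. There all mutants, array 1 included, lay above all controls, and the spread within each genotype was under 0.10 (SDs of 0.062 and 0.098).

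That third-brightest probe set was 0.61 higher in the mutants (standard error 0.094, 95% interval 0.39 to 0.83) and passed in the fit of every probe set (adjusted p = 0.0331, limma). It was 1 of 18 member probe sets tested, where 1.49% of all 24307 passed and 25% had groups that did not overlap. The call was lost with the replicate block (adjusted p = 0.0516), with the sex of the embryos as a covariate (0.0824) and without mutant array 2 (0.101), control array 1 (0.0737), control array 2 (0.198) or control array 3 (0.186). The log2 difference in these fits was between 0.56 and 0.66. Without mutant array 1 or 3 the call was kept (0.0213 and 0.0479). The other 3 probe sets above the filter value differed by 0.19, 0.044 and -0.068, and their groups overlapped.

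Within an array, the value of this probe set minus that of another Prrx1 probe set was higher in the mutants than in the controls, by 0.33 for the brightest and by 0.42, 0.56 and 0.68 for the other 3. Against 3 of these 4 the genotypes separated, with an exact permutation p of 0.1, the smallest possible, and of 0.2 for the remaining one (0.133 and 0.2 adjusted over the 4). The probe set was chosen for these comparisons because it had passed, so they describe its offset from the others and do not test it independently. The sources used here do not give which transcript form each reads. The dimmest probe set of Prrx1 lay at 3.07 to 3.35, far under the filter value, and was not tested.

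**Figure D2:**
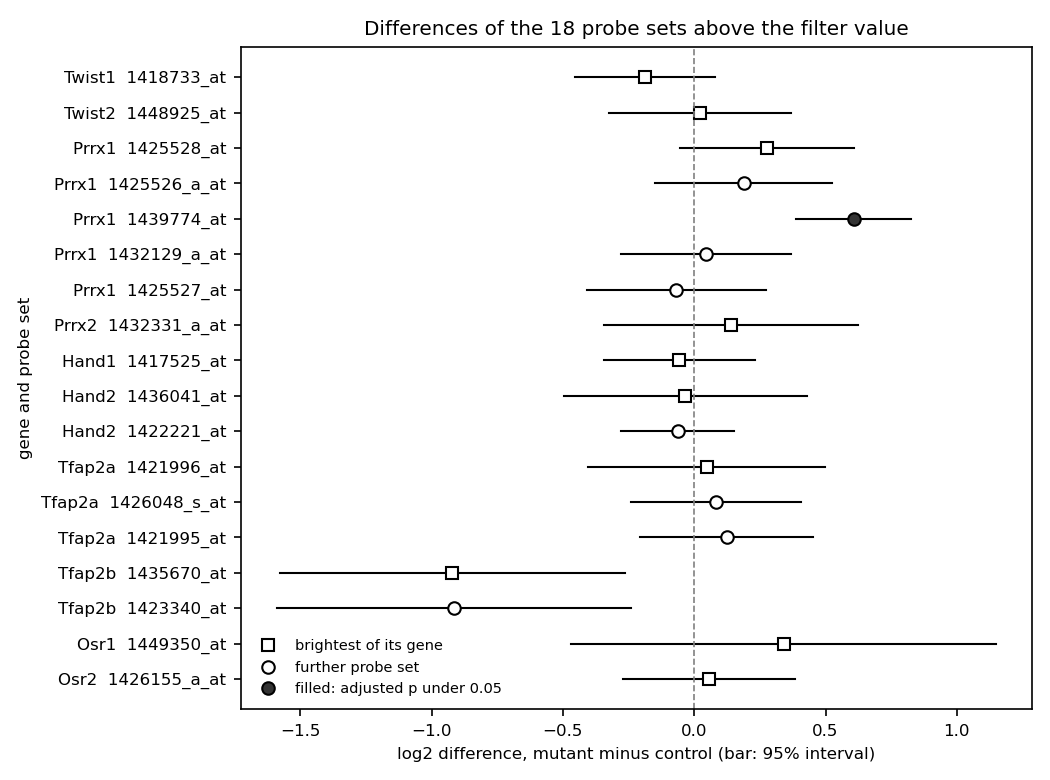
Log2 difference (mutant minus control, x axis) of the 18 member probe sets above the filter value, named on the y axis, with the 95% interval of the limma fit over every probe set as a bar. Squares are the brightest probe set of a gene and circles further ones. The filled circle, the third-brightest Prrx1 probe set at 0.61, is the only one past an adjusted p of 0.05, and both Tfap2b probe sets lie at -0.92.

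Prrx2, the partner of Prrx1 in jaw mesenchyme, read 7.61, 8.37 and 7.69 in the mutants and 7.92, 7.74 and 7.58 in the controls. Mutant array 2 was the highest of all arrays and the other mutants lay within the controls. The log2 difference was 0.14 (95% interval -0.34 to 0.62, adjusted p = 0.764, limma), and it turned to -0.099 without mutant array 2.

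Of the Twist pair, Twist1 acts in neural crest cells of the face and in the sutures of the skull, and Twist2 in the dermis. Twist1 read 9.83, 10.17 and 9.998 in the mutants and 10.26, 10.21 and 10.09 in the controls. Mutant array 2 lay among the controls and the other mutants below them. The log2 difference was -0.19 (95% interval -0.45 to 0.076, adjusted p = 0.449, limma). It was -0.10 without mutant array 1 and -0.27 without mutant array 2. The sign was negative under every setting, with adjusted p between 0.317 and 0.750 (limma). Twist2 lay at 9.05 to 9.60 in the mutants, around the controls at 9.19 to 9.33. Its difference of 0.022 (95% interval -0.32 to 0.37) was within the spread of the mutants.

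Hand2, a factor of the distal jaw downstream of endothelin signalling, read 10.61, 11.36 and 10.87 in the mutants and 11.20, 10.89 and 10.85 in the controls. The mutants spanned the controls, with array 2 highest and array 1 lowest of all 6. The log2 difference was -0.034 (95% interval -0.50 to 0.43, adjusted p = 0.949, limma) and 0.13 without mutant array 1. Of its dimmer probe sets, 1 above the filter value differed by -0.064 with overlapping groups. The other had a mean over all arrays under the filter value and was not tested, at 4.92 to 5.15 in the mutants and 5.22 to 5.26 in the controls. Hand1, which marks the most distal jaw mesenchyme, lay at 6.80 to 7.03 in the mutants and 6.74 to 7.09 in the controls, a difference of -0.057 (95% interval -0.34 to 0.23).

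Osr1 had the widest spread of the 10 in the controls. The mutants read 10.09, 9.72 and 10.75 and the controls 10.37, 9.97 and 9.20. The groups overlapped over most of their range. The log2 difference of 0.34 had a 95% interval of -0.47 to 1.15 (adjusted p = 0.655, limma). It was 0.016 without control array 3, 0.60 without control array 1 and 0.093 with the sex covariate. Its size thus depended on single arrays and on that covariate. Osr2, which acts in the mesenchyme of the palate, lay at 6.46 to 6.89 in the mutants and 6.44 to 6.71 in the controls, a difference of 0.056 (95% interval -0.27 to 0.38).

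**Figure D3:**
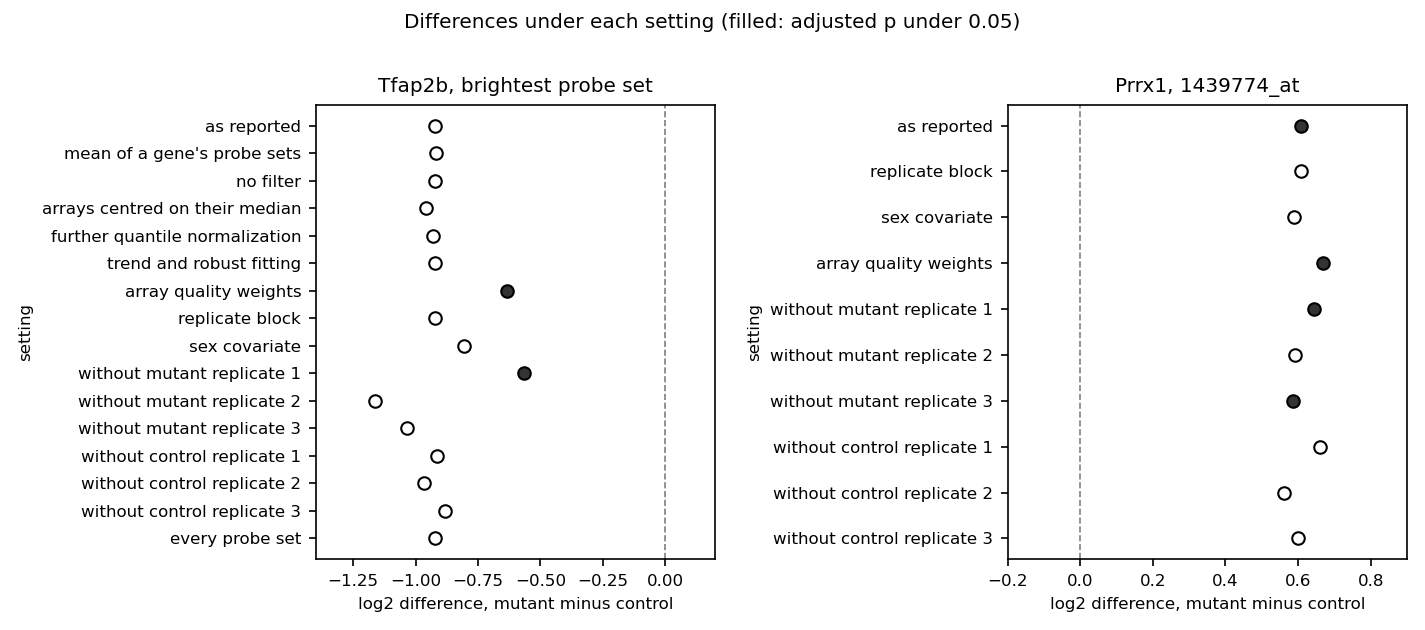
Log2 difference (mutant minus control, x axis) of the brightest Tfap2b probe set and of the third-brightest Prrx1 probe set under each setting (y axis), with filled points past an adjusted p of 0.05. Tfap2b stays between -1.16 and -0.57 and is past the threshold in 2 settings, and Prrx1 stays between 0.56 and 0.67.

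Genes that work with these factors were counted in the same fit, beside the share of all tested genes. Of 29 tested regulators of cranial neural crest mesenchyme outside the 10, 0 were higher and 0 lower, against 1.32% higher and 0.821% lower among all tested genes. The count at an unadjusted p under 0.05 was 9 of 29, beside 16.9% of all tested genes, and the median log2 difference was 0.072, beside 0.016. The smallest p-values belonged to genes with higher mutant values. Barx1, a homeobox gene of the jaw, differed by 0.71 (adjusted p = 0.0779), and Nr2f1, an orphan nuclear receptor gene, also by 0.71 (adjusted p = 0.0971). Meis1, a homeobox cofactor gene, differed by 0.49 and Snai2, a neural crest repressor gene of cell adhesion, by 0.42 (adjusted p = 0.144 and 0.149, limma). All 4 had every mutant above every control, while groups did not overlap for 25.1% of all tested genes. They were named for their small p-values, so this separation adds nothing to those. Other genes of the list had every mutant below every control. Without mutant array 1, 3 of the 29 were higher, where 3.17% of all tested genes were. With array quality weights 6 were higher, where 7.58% of all tested genes passed in either direction. With the replicate block 1 was higher, where 2.07% of all tested genes were, and with the sex covariate 0 were.

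Among 11 tested relatives, dimer partners and Id inhibitors of Twist and Hand, 1 was lower and 0 higher. Among all tested genes 0.821% were lower and 1.32% higher. Of the 11, 7 had an unadjusted p under 0.05, beside 16.9% of all tested genes, and the median log2 difference was -0.059. Msc, a helix-loop-helix repressor gene of muscle precursors, read 8.90, 9.10 and 9.08 in the mutants and 9.70, 9.68 and 9.69 in the controls. All mutants lay below all controls, and Msc fell by 0.66 (standard error 0.091, adjusted p = 0.0188, limma). The call was lost with the sex covariate (0.0592) and without mutant array 2, control array 1, control array 2 or control array 3 (0.0545 to 0.127). Tcf15, a somite factor gene, differed by -0.54 (adjusted p = 0.122), and Id4 and Id3, which encode inhibitors that bind E proteins, by 0.61 and 0.55 (adjusted p = 0.0927 and 0.126). Of the skeletal muscle markers, 11 of 12 were negative, 0 passed, and their summed linear level was 39802 to 59822 in the mutants and 60520 to 75120 in the controls. With the replicate block 4 of the 12 were lower, where 1.52% of all tested genes were, as were 3 with array quality weights and 0 to 2 with single arrays left out. Their part in the Msc value was not tested.

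Of 5 tested AP-2 relatives and cofactors 0 passed and 0 had an unadjusted p under 0.05. Tfap2c, the AP-2 gamma gene, differed by 0.26 (adjusted p = 0.590), and Kctd1 and Kctd15, which encode inhibitors of AP-2 proteins, by 0.23 and 0.066. Of the 7 tested genes of the endothelin and BMP input to the Hand genes 0 passed and 3 had an unadjusted p under 0.05, beside the 16.9% of all tested genes, with a median log2 difference of 0.099. Ece1, the endothelin-converting enzyme gene, and Bmp4 each differed by 0.38 (adjusted p = 0.113 and 0.197), Mef2c, a muscle and neural crest factor gene, by -0.45 (0.292), and the ligand gene Edn1 by 0.18 (0.427, limma).

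Of 9 tested genes with reported links to the 10 factors, 1 was lower and 0 higher, where 0.821% and 1.32% of all tested genes were. At an unadjusted p under 0.05 the count was 4 of 9, beside 16.9% of all tested genes, and the median log2 difference was 0.17. Tnc, the matrix protein gene tenascin C, whose promoter Prrx1 can activate, read 8.14, 9.32 and 9.36 in the mutants and 10.56, 10.999 and 11.08 in the controls. The groups were far apart, and Tnc fell by 1.94 (standard error 0.33, adjusted p = 0.0317, limma), or by 1.54 without mutant array 1. The call was lost when its probe sets were averaged (-1.29, adjusted p = 0.0566), with the sex covariate (0.0659) and without mutant array 2 or any 1 of the controls (0.0783 to 0.162). The other genes named by the rule were Krt14, given above, Snai2, and Sp7, a bone factor gene, which differed by 0.30 (adjusted p = 0.153).

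**Figure D4:**
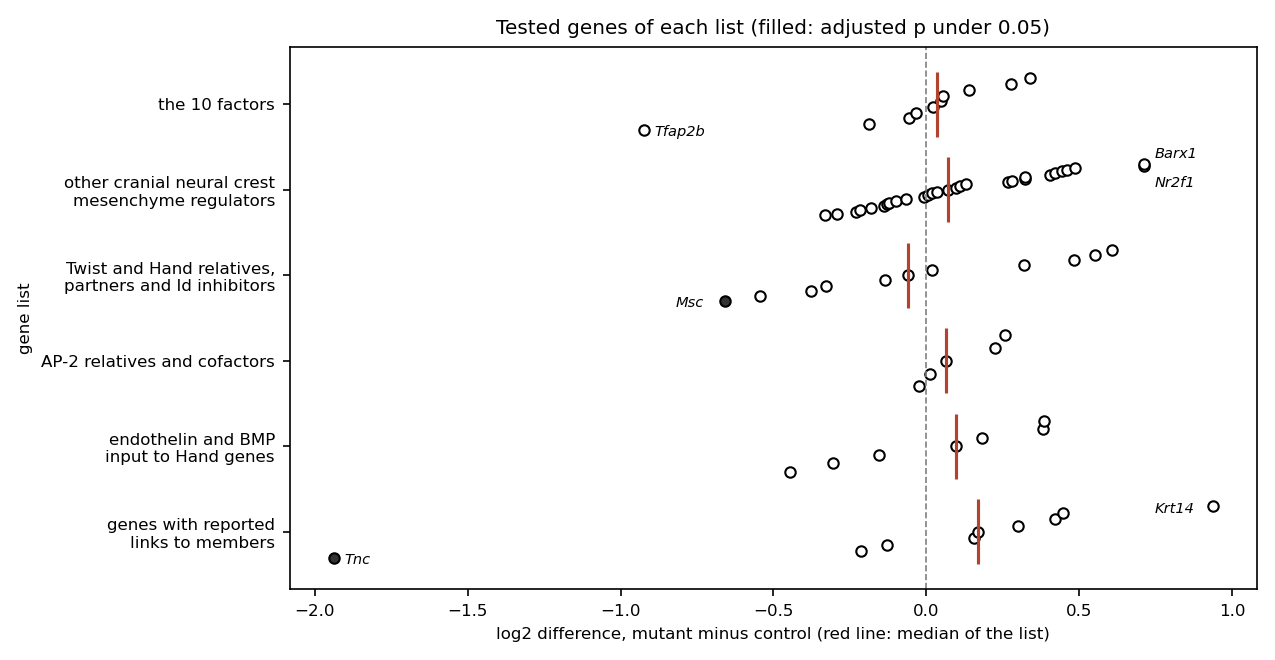
Log2 difference (mutant minus control, x axis) of each tested gene in the 6 lists (y axis), with the list's median as a red line and genes past an adjusted p of 0.05 filled. Most genes lie within 0.5 of zero, Tfap2b lies lowest of the 10 factors at -0.92, and Msc (-0.66) and Tnc (-1.94) are the filled points.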

How the data were processed

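Total RNA of embryonic tongues was measured on 6 Affymetrix arrays. The deposited values are log2 expression per probe set, made by the authors with RMA (no version stated), per the submitters' processing notes. In RMA, differences of dim probe sets are compressed, and quantile normalization hides a change shared by most genes. Arrays have no read depth, and their number limits the precision (median standard error of a log2 difference 0.117).

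Of 45101 probe sets, 34945 have 1 gene symbol in the platform annotation. The brightest probe set by mean stood for a gene, and the dimmest 25% of genes (mean under 5.17) were left out. The genotypes were compared in R 4.3.3 with limma 3.58.1 (lmFit, eBayes, 2-sided, Benjamini-Hochberg over 13645 genes, threshold 0.05), and every probe set was also tested on its own (24307). Differences within paralogue pairs were tested by exact permutation (scipy 1.17.1). The fit was tested on simulated arrays with the gene means and residual spread of these data, in which 200 genes were changed. It recovered 0% of them at a log2 change of 0.5, 71.5% at 1 and 95% at 2, with 0, 6 and 7 false calls. Marker levels were summed as antilogs. Figures were drawn with matplotlib 3.10.9.

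The members and lists were chosen with earlier results of these data known. Named were Tgfbr2, the 10 members, up to 4 genes per list of regulators with the smallest p, and up to 2 per marker list. The marker lists also covered endothelium (0 of 9 called), macrophages (3 higher and 1 lower of 8), red cells (0 of 5) and cartilage and bone (1 higher of 6). Among all tested genes 1.32% were higher and 0.821% lower. Of 10 connective tissue markers 3 were higher, while 7 had a negative log2 difference and the median of the 10 was -0.16. The count of higher ones was 2 with averaged probe sets and 0 to 3 with single arrays left out. Alternatives were other filters, probe set choices and scalings, trend and robust fitting, array weights, a replicate block, embryo sex (read from Xist and Y-linked genes) and each array left out. For title numbers 1, 2 and 3, the mutant array correlated with the control array of that number at 0.309, 0.105 and 0.206, after genotype differences. Mutant array 2 correlated more with control array 3 (0.196). Mutant array 3 also correlated with control array 2 (0.147). The remaining pairings lay between -0.273 and -0.171. Only number 1 was thus clearly set apart, and numbers 2 and 3 were not. The title numbers served as pairs only in the replicate block, a pairing that rests on these correlations alone.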

Additional observations from a re-analysis of the deposited data

How the results depend on the processing

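Of 157 values of the 10 members under the alternatives, 138 kept their sign and their side of the threshold, 2 passed (Tfap2b, given above) and 17 changed sign, all of them within 0.16 of zero. Twist2 was -0.014 with arrays centred on their median and between -0.13 and 0.14 with single arrays left out. With single arrays left out, Prrx2 was between -0.099 and 0.28, Hand1 between -0.15 and 0.022, Hand2 between -0.24 and 0.13, Tfap2a between -0.087 and 0.22 and Osr2 between -0.078 and 0.14. Hand2 was 0.16 with array quality weights, and with the sex covariate Hand2, Tfap2a and Osr2 were 0.014, -0.039 and -0.021. The number of members called was 1 with array quality weights and with every probe set, and 0 to 1 with single arrays left out. Over all genes 292 passed, against 151 with the lowest 50% left out, 1034 with array quality weights, 490 with the replicate block, 135 with the sex covariate and 16 to 670 with single arrays left out. Of the regulators listed beside the members 2 passed, against 12 with array quality weights, 4 with the replicate block, 0 with the sex covariate and 0 to 7 with single arrays left out. The replicate block changed no call among the members' brightest probe sets. The number of paralogue pairs whose genotypes separated was 1, with 1 to 2 when single arrays were left out, and with the replicate block 1 pair, Tfap2a and Tfap2b, had the same sign in all 3 numbered pairs (exact sign-flip p = 0.25). The cause of these shifts was not tested. With the lowest 50% left out, Hand1, Tfap2b and Osr2 were not tested. Signal close to background limits 4 member probe sets, which were not tested. Those of Prrx1 and Hand2 are described above. A dimmer probe set of Hand1 lay at 4.63 to 4.92 in the mutants and 4.79 to 5.15 in the controls. A dimmer probe set of Osr2 lay at 4.05 to 4.09 in the mutants and 3.72 to 4.32 in the controls.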
